A study of Mus musculus with 3 samples.

Results

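The mRNA of 8 genes that mark developing thymocytes and T cells newly released from the thymus was examined in sorted mouse CD8+ T cells: Sox4, Rag1, Rag2, Dntt, Cd24a, Themis, Ly6d and Arpp21. The genes were taken by name, as every probe set whose platform annotation gives exactly 1 gene symbol that is one of these names. This gave 26 probe sets for 8 of the 18193 genes named on the array. The measurement was made on Affymetrix mouse arrays, on which each gene is read by 1 or more sets of short probes. There were 3 groups with 1 array each. The first was NK1.1+ CD8+ T cells of Tgfbr2fl/fl x CD4-Cre mice (NK1.1+ KO), whose T cells lack the type II receptor for transforming growth factor β (TGF-β). The second was NK1.1− CD8+ T cells of the same mutant line (NK1.1− KO), and the third was cells of Tgfbr2fl/wt x CD4-Cre littermates (control). The mutants were 15 to 17 days old, and the controls were their littermates. NK1.1 is a surface receptor of natural killer cells. All 3 groups carry Cre recombinase under the Cd4 promoter, which acts during thymocyte development, and the control cells carry 1 floxed allele. The title of the control sample names NK1.1− cells, as does the last sentence of the submitters' design, but the same design also speaks of total CD8+ cells, which leaves the gate of the control sort uncertain. Neither the tissue sorted nor the number of mice per array is given in the sources used here.

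T cells form in the thymus, where RAG1 and RAG2 cut DNA to assemble the T cell receptor genes and terminal deoxynucleotidyl transferase, the product of Dntt, adds nucleotides at the joints. These genes are switched off as thymocytes mature, and cells that have just left the thymus still carry more of some thymocyte products, such as the surface protein CD24, than older naive T cells do. SOX4 is a transcription factor of early lymphocyte development that TGF-β is known to induce in several cell types. In a young mouse much of the peripheral T cell pool has left the thymus recently.

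Sox4 and Cd24a were several-fold lower on both KO arrays than in control cells. Between the KO subsets neither gene differed by 2-fold. Themis had no common direction over its probe sets. Dntt passed the level for a measured value on the control array alone, and Rag1, Rag2, Ly6d and Arpp21 passed it on none. Each group has a single array, which leaves the spread between mice unknown, and none of these differences was tested.

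Promoters are shown for Sox4, the member of the 8 with the largest difference from control, for Themis, whose probe sets differed from control in no common direction, and for Rag1, whose values stayed under the level for a measured value. Each is the 250 bases before the RefSeq transcription start in build GRCm38.p6, written 5′ to 3′ on the gene's strand. Capitals mark the letters CAGAC or GTCTG, the core of the element that SMAD proteins, the transcription factors of TGF-β signalling, bind. The Sox4 promoter lies at chr13:28953700-28953949 on the minus strand, the Themis promoter at chr10:28668110-28668359 on the plus strand and the Rag1 promoter at chr2:101649533-101649782 on the minus strand.
Sox4: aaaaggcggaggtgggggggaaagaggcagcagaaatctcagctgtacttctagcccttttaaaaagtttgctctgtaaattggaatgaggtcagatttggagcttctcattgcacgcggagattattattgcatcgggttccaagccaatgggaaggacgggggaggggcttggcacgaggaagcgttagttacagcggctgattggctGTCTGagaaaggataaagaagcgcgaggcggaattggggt
Themis: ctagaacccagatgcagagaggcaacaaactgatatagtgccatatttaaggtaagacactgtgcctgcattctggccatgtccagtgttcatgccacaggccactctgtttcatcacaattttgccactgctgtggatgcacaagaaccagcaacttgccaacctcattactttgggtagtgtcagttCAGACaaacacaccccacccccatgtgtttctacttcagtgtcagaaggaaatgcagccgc
Rag1: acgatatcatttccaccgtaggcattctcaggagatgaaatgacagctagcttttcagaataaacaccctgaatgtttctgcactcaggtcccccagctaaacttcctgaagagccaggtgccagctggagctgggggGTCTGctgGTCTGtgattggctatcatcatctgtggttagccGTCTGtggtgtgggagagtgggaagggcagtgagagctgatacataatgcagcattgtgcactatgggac

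The Sox4 window held 1 match, whose first base lay 40 bases before the start. The Themis window held 1 match, 61 bases before the start, and the Rag1 window held 3 matches, at 112, 104 and 70 bases before it. Among 32851 promoters of the same length, 42.2% held at least 1 match. The E-box CANNTG, which reads the same on both strands and is bound by E proteins of lymphocyte development, was found 1 time in the Sox4 window, 2 times in that of Themis and 3 times in that of Rag1, and 66.2% of all promoters held it. The letters ACAAAG, the core bound by SOX and TCF proteins, were in none of the 3 windows on either strand and in 16.5% of all promoters. The windows of Rag2 and Dntt held no CAGAC on either strand. Promoters were found for 6 of the 8 genes, and those of Cd24a and Ly6d were not used here. A match describes the letters and no binding was measured.

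The values are intensities on a linear scale, made by the submitters with GCRMA, which corrects background by probe sequence and scales the arrays to one another. Intensities of at least 9.66 were taken as measured, a level set at the 95th percentile of 145 probe sets for genes of other tissues, such as olfactory receptors. Lower values were raised to that level before a difference was taken. A difference of at least 2-fold, or 1 on the log2 scale, was called. Each gene was represented by its brightest probe set. By these rules 10 of the 26 probe sets were measured on at least 1 array, 7 on all 3 and 16 on none. Intensities of different probe sets are not compared with each other, since probes differ in how well they bind. The sums of cell type markers further on are an exception. They add unlike probe sets, also values under the level, and mostly follow the brightest ones.

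The arrays differed in measures of RNA and in the checks of the sort. The 3′ to 5′ ratio of the Actb control probe sets was 81.9 for NK1.1+ KO cells, 12.3 for NK1.1− KO cells and 6.02 for control cells, and the Gapdh ratio was 10.8 for NK1.1+ KO cells, 26.7 for NK1.1− KO cells and 17.8 for control cells. Genes measured numbered 10088 in NK1.1+ KO cells, 9713 in NK1.1− KO cells and 9595 in control cells. Of 8 measured housekeeping genes, 3 were lower in NK1.1+ KO cells than in control cells with a median of -0.67, or 1 with equal array medians, and 0 in NK1.1− KO cells with a median of 0.02. The shares of all genes lower were 22.6%, 14.5% and 5.56% in the same order. Tgfbr2 on its bright probe set read 1808 in NK1.1+ KO cells, 1271 in NK1.1− KO cells and 2634 in control cells, and the position of its probes relative to the floxed exons was not used here. The probe set shared by Klrb1b and Klrb1c, the NK1.1 gene, read 1618 in NK1.1+ KO cells, 52.7 in NK1.1− KO cells and 7.09 in control cells, in the order of the labels. The NK1.1+ KO array thus stood apart in Actb, and the part of RNA quality in the differences given next was not tested.

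**Figure D1:**
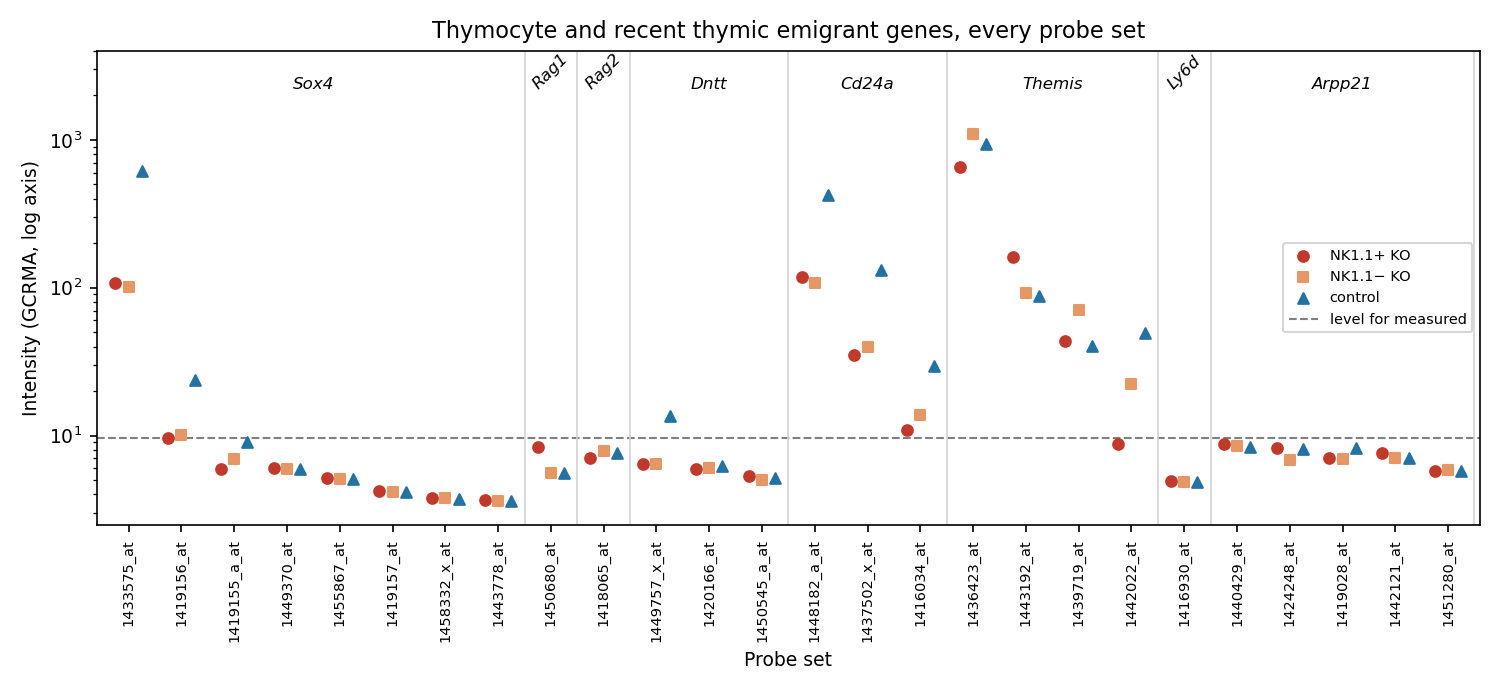
GCRMA intensity (log axis) of the 26 probe sets of the 8 genes on the NK1.1+ KO, NK1.1− KO and control arrays, 1 point per array, with the level for a measured value dashed at 9.66. The control point stands above both KO points for the 2 measured Sox4 and 3 Cd24a probe sets, and every probe set of Rag1, Rag2, Ly6d and Arpp21 lies under the line.

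Sox4 encodes an HMG-box transcription factor that early T and B cell progenitors need. Its probe set 1433575_at read 107.1 in NK1.1+ KO cells, 101.6 in NK1.1− KO cells and 611.9 in control cells. The control array stood apart from 2 KO arrays that were close to each other. The intensity was 5.71-fold lower in NK1.1+ KO cells than in control cells, a log2 difference of -2.51, and 6.02-fold lower in NK1.1− KO cells than in control cells, a log2 difference of -2.59. Between the KO subsets the log2 difference was 0.08. A dimmer probe set, 1419156_at, read 9.61 in NK1.1+ KO cells, just under the level, 10.2 in NK1.1− KO cells and 23.6 in control cells. It placed the arrays in the same order of control above both KO subsets, at least 2.45-fold lower in NK1.1+ KO cells and 2.33-fold lower in NK1.1− KO cells than in control cells. The other 6 Sox4 probe sets read between 3.59 and 8.99 on every array and were not measured, so the Sox4 difference rests on 2 of 8 probe sets. Over these 2 the mean log2 difference was -1.90 ± 0.865 (SD over probe sets) for NK1.1+ KO and -1.91 ± 0.969 for NK1.1− KO, each minus control, which is the disagreement between probe sets and not the spread between mice.

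Cd24a encodes heat-stable antigen, a sugar-coated surface protein that is high on immature thymocytes and falls as T cells mature. All 3 of its probe sets were measured on all 3 arrays. The brightest, 1448182_a_at, read 117.3 in NK1.1+ KO cells, 107.5 in NK1.1− KO cells and 425.0 in control cells. That is 3.62-fold lower in NK1.1+ KO cells (log2 -1.86) and 3.95-fold lower in NK1.1− KO cells (log2 -1.98) than in control cells. Probe set 1437502_x_at read 35.1 in NK1.1+ KO cells, 39.7 in NK1.1− KO cells and 130.9 in control cells, 3.73-fold lower in NK1.1+ KO cells and 3.30-fold lower in NK1.1− KO cells than in control cells. Probe set 1416034_at read 10.9 in NK1.1+ KO cells, 13.8 in NK1.1− KO cells and 29.7 in control cells, 2.71-fold lower in NK1.1+ KO cells and 2.15-fold lower in NK1.1− KO cells. The control array was highest for every Cd24a probe set, and no probe set differed by 2-fold between the KO subsets. The mean log2 difference from control over the 3 probe sets was -1.73 ± 0.255 (SD over probe sets) in NK1.1+ KO and -1.60 ± 0.451 in NK1.1− KO cells. Less mRNA per cell and fewer cells of a type that carries the mRNA cannot be told apart in such sorted bulk samples.

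Themis encodes a protein of the T cell receptor pathway that thymocytes need for positive selection and that mature T cells keep at a lower level. Probe set 1436423_at read 652.3 in NK1.1+ KO cells, 1087 in NK1.1− KO cells and 937.3 in control cells, a log2 difference from control of -0.52 in NK1.1+ KO cells and of 0.21 in NK1.1− KO cells. Probe set 1443192_at read 160.2 in NK1.1+ KO cells, 92.5 in NK1.1− KO cells and 87.4 in control cells. Here the NK1.1+ KO array was the highest, by 0.87 on the log2 scale over control, where on 1436423_at it was the lowest. Probe set 1439719_at read 43.5 in NK1.1+ KO cells, 70.9 in NK1.1− KO cells and 40.2 in control cells, with NK1.1− KO the highest by 0.82 over control. Probe set 1442022_at read 8.76 in NK1.1+ KO cells, under the level, 22.3 in NK1.1− KO cells and 49.5 in control cells. It alone passed 2-fold, at least 5.12-fold lower in NK1.1+ KO cells and 2.21-fold lower in NK1.1− KO cells than in control cells. The 4 probe sets thus ordered the arrays in different ways, and their mean log2 difference from control was -0.47 ± 1.38 (SD over probe sets) in NK1.1+ KO and -0.01 ± 0.824 in NK1.1− KO. The positions of the 4 probe sets in the transcript were not used here.

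Dntt probe set 1449757_x_at read 6.46 in NK1.1+ KO cells, 6.40 in NK1.1− KO cells and 13.6 in control cells. The control value alone passed the level, so the difference is a bound of at least 1.41-fold lower in each KO subset, which was not called. The other 2 Dntt probe sets read from 4.98 to 6.25 on all arrays and gave the control array no such excess. Rag1 read 8.31 in NK1.1+ KO cells, 5.61 in NK1.1− KO cells and 5.55 in control cells on its only probe set. Rag2 read 7.04 in NK1.1+ KO cells, 7.91 in NK1.1− KO cells and 7.61 in control cells on its only probe set. No order can be read from these 2 genes, whose values all lay under the level. Ly6d, which encodes a surface protein of early lymphoid and B cell progenitors, read 4.91 in NK1.1+ KO cells, 4.88 in NK1.1− KO cells and 4.87 in control cells. Arpp21, which encodes a cAMP-regulated phosphoprotein known from the brain, read from 5.77 to 8.73 over its 5 probe sets. Across Rag1, Rag2, Ly6d and Arpp21, 24 values from 8 probe sets lay between 4.87 and 8.73, and such values do not show that the genes are silent.

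By gene, 2 of the 4 genes measured on either array of the comparison, Sox4 and Cd24a, passed 2-fold on the lower side in NK1.1+ KO minus control and 0 on the higher side. The background in that comparison was 22.6% of 10624 genes lower and 9.73% higher. In NK1.1− KO minus control, 2 of 4 genes, again Sox4 and Cd24a, were lower and 0 higher, against a background of 5.56% of 10057 genes lower and 7.98% higher. Between NK1.1+ KO and NK1.1− KO cells 0 of 3 genes were called, where 20.9% of 10618 genes were lower and 6.43% higher in NK1.1+ KO. The comparisons with control share that array. Dntt counted among the 4 genes through its control value only, so it could not have been called higher.

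By probe set, 6 of 10 were lower and 0 higher in NK1.1+ KO cells than in control cells, where 22.5% of all measured single-symbol probe sets were lower and 8.72% higher. Sox4 1419156_at, Themis 1442022_at and Dntt 1449757_x_at were under the level in NK1.1+ KO cells, so these could only be called lower. In NK1.1− KO against control 6 of 10 were lower and 0 higher, where 5.92% of all were lower and 6.91% higher. Dntt 1449757_x_at could only be called lower here too. Between the KO subsets 1 of 9, the Themis probe set 1442022_at, was lower in NK1.1+ KO cells and 0 were higher, where 20.6% of all were lower and 6.3% higher. That call was lost with equal array medians, at -0.96, and the Themis probe set 1443192_at was then the one called, higher in NK1.1+ KO cells by 1.18 on the log2 scale. After quantile normalization both were called, 1442022_at on the lower side at -1.14 and 1443192_at on the higher side at 1.11. As deposited, 1442022_at and Sox4 1419156_at were measured in NK1.1− KO cells but not in NK1.1+ KO cells, and could only be called lower. Probe sets of 1 gene read the same transcripts and are not independent.

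Calls against the NK1.1+ KO array depended on how the arrays were scaled. As deposited, 1034 genes were higher and 2398 lower in NK1.1+ KO cells than in control cells, and the median of all genes lay at -0.17 on the log2 scale. After quantile normalization the split was 1293 higher and 1903 lower with a median of -0.06, and with equal array medians it was 1596 higher and 1664 lower with a median of 0.13. Between the KO subsets 683 genes were higher and 2222 lower in NK1.1+ KO as deposited, 922 and 1659 after quantile normalization, and 1232 and 1296 with equal medians, and the medians were -0.24, -0.10 and 0.12. Sox4 in NK1.1+ KO minus control was -2.24 after quantile normalization and -2.17 with equal medians, and Cd24a was -1.57 and -1.51. The Themis probe set 1443192_at passed 2-fold in NK1.1+ KO under both, at 1.15 and 1.22 over control.

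Among all genes tested, 2.74% were as low as Sox4 or lower in NK1.1+ KO minus control, and 0.428% in NK1.1− KO minus control. For Cd24a these shares were 7.61% in NK1.1+ KO cells and 0.845% in NK1.1− KO. For Themis they were 36.6% in NK1.1+ KO cells and 66.7% in NK1.1− KO. Sox4 and Cd24a therefore lay nearer to the edge of the distribution in NK1.1− KO cells than in NK1.1+ KO cells, where many more genes were low, although their differences from control were of about the same size. A scale for the measurement is the pooled SD of the log2 difference between probe sets of 1 gene, over 3824 genes with at least 2 measured probe sets. It was 0.85 for NK1.1+ KO minus control and 0.423 for NK1.1− KO minus control, and 0.76 between the KO subsets. It measures only how far probe sets of a gene disagree within these arrays, and holds no spread between mice or sorts.

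**Figure D2:**
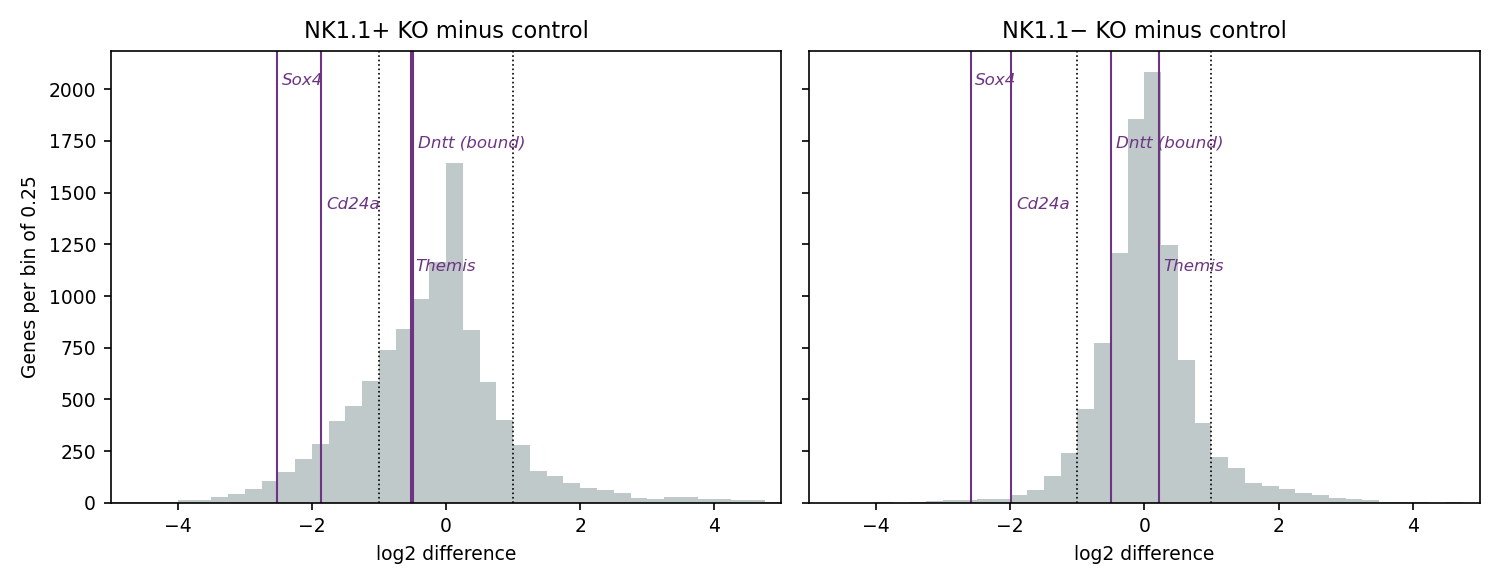
Histograms of the log2 difference from control over all measured genes, NK1.1+ KO on the left and NK1.1− KO on the right, drawn from -5 to 5, with Sox4, Cd24a, Themis and the bound of Dntt as purple lines and 2-fold as dotted lines. Sox4 and Cd24a lie left of the 2-fold line in both panels, at -2.51 and -1.86 for NK1.1+ KO and at -2.59 and -1.98 for NK1.1− KO.

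Some genes followed the pattern of a member over the 3 arrays. Of 8907 genes measured on all 3, 8 lay within 0.25 of Sox4 by the Euclidean distance of their centred log2 values. The nearest were Inpp4b, which encodes a phosphoinositide phosphatase, at 0.0634, Usp28 at 0.0953 and Cxxc5 at 0.116. Inpp4b read 41.9 in NK1.1+ KO cells, 42.2 in NK1.1− KO cells and 248.4 in control cells. For Cd24a 10 genes lay within 0.25, and the nearest were Ovgp1 at 0.0201, Basp1 at 0.0865 and A930005H10Rik at 0.115. Basp1 read 55.1 in NK1.1+ KO cells, 50.4 in NK1.1− KO cells and 185.3 in control cells. For Themis 826 genes, 9.27% of those measured on all arrays, lay within 0.25, the nearest being Gtf2h5, Rxylt1 and Hk1. A pattern over 3 arrays consists of 2 differences, and the distances describe these arrays only.

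A list of 9 genes tied to recent emigrants or to loss during maturation included Sox4 and Cd24a, and 8 of the 9 were named on the array. In each KO subset 5 of 7 measured genes were lower than in control and 0 higher, where the background lower was 22.6% in NK1.1+ KO and 5.56% in NK1.1− KO. One of the 5 is Pecam1, which was measured in control cells alone and could only be called lower. Without it 4 of 6 were lower, with medians of -2.19 in NK1.1+ KO and -2.29 in NK1.1− KO. Without Sox4 and Cd24a as well 2 of 4 were lower and 0 higher, with medians of -2.25 in NK1.1+ KO and -1.43 in NK1.1− KO. Counts of the lists that follow can also hold genes measured on 1 array of a pair, which could be called in 1 direction only. Itgae, which encodes the αE integrin CD103 and is induced by TGF-β in CD8+ T cells, read 21.4 in NK1.1+ KO cells, 44.6 in NK1.1− KO cells and 444.1 in control cells. Ccr9, the chemokine receptor for CCL25 on thymocytes and gut-homing T cells, read 14.9 in NK1.1+ KO cells, 36.9 in NK1.1− KO cells and 292.6 in control cells. Pecam1, which encodes the adhesion protein CD31 and was named after its values were seen, read 6.90 in NK1.1+ KO cells, 9.41 in NK1.1− KO cells and 46.2 in control cells. Ikzf2, which encodes the transcription factor Helios, read 2792 in NK1.1+ KO cells, 2790 in NK1.1− KO cells and 2391 in control cells. Tox, a regulator of thymocyte selection, read 80.9 in NK1.1+ KO cells, 101.1 in NK1.1− KO cells and 92.9 in control cells. Ikzf2 and Tox thus differed by less than 2-fold on every pair of arrays, and Ptk7, also named after its values were seen, was not measured. Unlike Sox4 and Cd24a, Itgae and Ccr9 also passed 2-fold between the KO subsets, at 2.08-fold and 2.48-fold lower in NK1.1+ KO cells, and under equal array medians 0 genes of the list did.

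**Figure D3:**
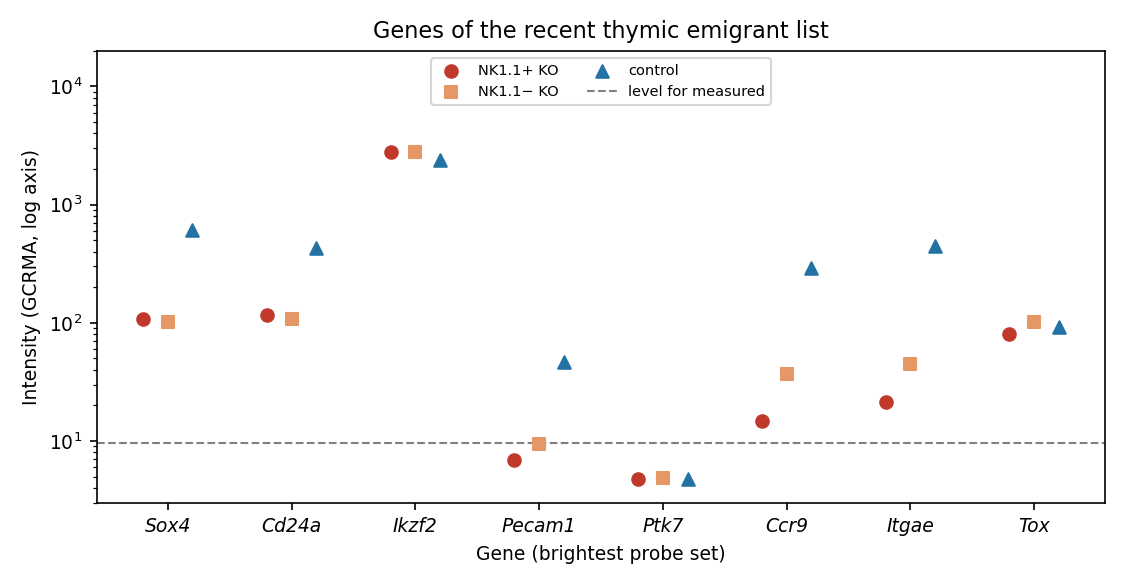
GCRMA intensity (log axis) of the brightest probe set of the 8 recent emigrant genes named on the array, for NK1.1+ KO, NK1.1− KO and control cells, with the level of 9.66 dashed. Control points stand clearly above both KO points for Sox4, Cd24a, Pecam1, Ccr9 and Itgae, and the 3 points lie close together for Ikzf2, Ptk7 and Tox.

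Genes on the other side of T cell maturation were set beside these. Of 8 measured genes that are tied to maturation after cells leave the thymus, 4 were lower in each KO subset than in control and 0 higher, with medians of -1.03 in NK1.1+ KO and -1.09 in NK1.1− KO. Over all genes 22.6% were lower in NK1.1+ KO and 5.56% in NK1.1− KO. With quantile normalization or equal medians the NK1.1+ KO count was 3. Nt5e, which encodes the ectonucleotidase CD73, read 31.2 in NK1.1+ KO cells, 30.5 in NK1.1− KO cells and 153.0 in control cells. Cd55, which encodes a complement regulator, read 14.1 in NK1.1+ KO cells, 20.0 in NK1.1− KO cells and 69.4 in control cells. Ms4a4b, a membrane protein of T cells, read 26530 in NK1.1+ KO cells, 24100 in NK1.1− KO cells and 21860 in control cells. Of 10 measured genes of naive T cells, 7 were lower and 0 higher in each KO subset, with medians of -1.69 in NK1.1+ KO and -1.39 in NK1.1− KO. Under the other scalings the NK1.1+ KO count was 6 with quantile normalization and 5 with equal medians. Igfbp4 read 12.6 in NK1.1+ KO cells, 478.6 in NK1.1− KO cells and 7032 in control cells. Dapl1 read 43.6 in NK1.1+ KO cells, 107.1 in NK1.1− KO cells and 910.7 in control cells. The post-thymic and the naive list share 3 genes, S1pr1, Klf2 and Il7r, the last named after its values were seen.

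Some other genes of thymocyte stages were called lower on each KO array. This list shares Ccr9 and Tox with the recent emigrant list, and other genes with the naive and CD8 T cell lists. Its counts are therefore not independent of theirs. In NK1.1+ KO minus control, 12 of 25 measured genes were lower and 1 higher, with a median of -0.99, against a median of -0.17 over all genes. Of all genes 22.6% were lower and 9.73% higher in that comparison. The counts lower were 9 of 24 after quantile normalization and 8 of 25 with equal medians, where 18.3% and 14.5% of all genes were lower. In NK1.1− KO minus control, 5 of 24 were lower and 0 higher, with a median of -0.29, against 0.01 over all genes. Of all genes 5.56% were lower and 7.98% higher there. Id3, an inhibitor of E proteins that pre-TCR and TCR signals induce, read 16.6 in NK1.1+ KO cells, 43.4 in NK1.1− KO cells and 153.3 in control cells. Notch3, a receptor of immature thymocytes, ran the other way and read 80.5 in NK1.1+ KO cells, 24.6 in NK1.1− KO cells and 15.2 in control cells. Bcl11b, a transcription factor of T cell commitment, read 10490 in NK1.1+ KO cells, 7341 in NK1.1− KO cells and 7846 in control cells. Ptcra, which encodes the pre-T cell receptor α chain of early thymocytes and was named after its values were seen, read 5.99 in NK1.1+ KO cells, 6.45 in NK1.1− KO cells and 5.35 in control cells, and was not measured.

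The partners of the recombination and signalling members were set beside them, and their counts stand against 22.6% of all genes lower in NK1.1+ KO and 5.56% in NK1.1− KO. Of 10 measured genes that act with RAG1, RAG2 and the Dntt product in joining DNA ends, 6 were lower and 1 higher in NK1.1+ KO cells than in control cells, with a median of -1.31. In NK1.1− KO 0 were lower and 1 higher, with a median of -0.30. Xrcc6, which encodes the Ku70 protein that holds broken DNA ends, read 16.3 in NK1.1+ KO cells, 91.7 in NK1.1− KO cells and 167.9 in control cells. Hmgb2, a DNA-bending cofactor of the RAG proteins, read 4259 in NK1.1+ KO cells, 5064 in NK1.1− KO cells and 2009 in control cells, the one gene of the list called higher in each KO subset. Most of these genes serve DNA repair in all cells. Of 8 measured genes of proteins that act with THEMIS in T cell receptor signalling, 5 were lower and 0 higher in NK1.1+ KO cells than in control cells, with a median of -1.49, and with equal medians 1 was higher. In NK1.1− KO 1 was lower and 0 higher, with a median of -0.12. Ptpn6, which encodes the phosphatase SHP-1 that binds THEMIS, read 157.5 in NK1.1+ KO cells, 291.3 in NK1.1− KO cells and 674.9 in control cells. Vav1, a guanine nucleotide exchange factor, read 113.0 in NK1.1+ KO cells, 319.8 in NK1.1− KO cells and 587.9 in control cells. Ptpn11, which encodes SHP-2, read 2792 in NK1.1+ KO cells, 3054 in NK1.1− KO cells and 1580 in control cells.

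Many relatives of Sox4 and Ly6d were not measured, and all 6 relatives of Arpp21 were. Over all genes 22.6% were lower and 9.73% higher in NK1.1+ KO minus control. The shares in NK1.1− KO minus control were 5.56% lower and 7.98% higher. Counts as small as those below were not read as a difference from these shares. Of 11 other SRY-box genes, 5 were measured in the NK1.1− KO and control comparison and 0 were called. In NK1.1+ KO minus control 7 were measured, 0 were lower and 1 was higher, which was Sox11. It belongs with Sox4 and Sox12 to the SoxC group, was named after its values were seen, and read 38.5 in NK1.1+ KO cells, 5.10 in NK1.1− KO cells and 9.22 in control cells. Sox12 read 16.7 in NK1.1+ KO cells, 14.8 in NK1.1− KO cells and 16.5 in control cells. Its log2 difference from control was 0.02 in NK1.1+ KO cells and -0.16 in NK1.1− KO cells. No control value of the 11 genes reached 2-fold over the level for a measured value. None of them could therefore have been called lower, and a fall as large as that of Sox4 could not have been measured. Of the Ly6 family, 2 of 3 measured genes were lower and 1 higher in NK1.1+ KO minus control, and 1 of 2 was lower in NK1.1− KO minus control. Ly6e read 894.2 in NK1.1+ KO cells, 2044 in NK1.1− KO cells and 2682 in control cells. Of the 6 relatives of Arpp21, 2 were lower and 0 higher in NK1.1+ KO minus control, and 0 were called in NK1.1− KO minus control. Arpp19, which encodes another cAMP-regulated phosphoprotein, read 480.7 in NK1.1+ KO cells, 793.9 in NK1.1− KO cells and 479.4 in control cells.

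Cell division genes, which thymocytes also express, had a median log2 difference of -2.97 in NK1.1+ KO minus NK1.1− KO, with 15 of 16 measured genes lower. Of all genes 20.9% were lower in that comparison. Of 15 measured in NK1.1− KO minus control, 13 were higher and 0 lower, with a median of 2.22, where 7.98% of all genes were higher. Of 16 in NK1.1+ KO minus control, 0 were higher and 7 lower, with a median of -0.77, and with equal medians 1 was higher and 5 lower. The shares over all genes were 9.73% higher and 22.6% lower, and 13.9% and 14.5% with equal medians. Aurkb, a mitotic kinase, read 10.8 in NK1.1+ KO cells, 311.6 in NK1.1− KO cells and 44.1 in control cells. Sox4 and Cd24a, at nearly the same value in both KO subsets, did not share this order.

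**Figure D4:**
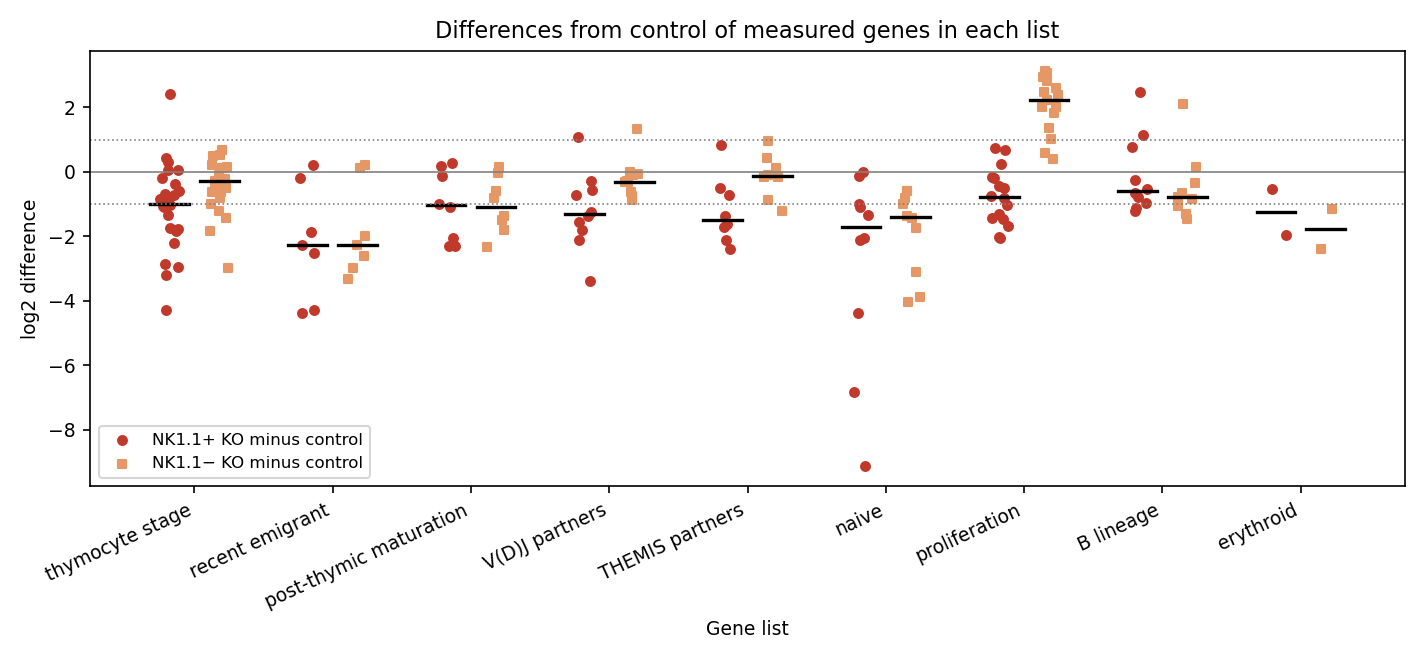
log2 differences from control of the measured genes in 9 lists, 1 point per gene, NK1.1+ KO left of NK1.1− KO within each list, with the median as a black bar and 2-fold as dotted lines. The median bars of the recent emigrant list lie at the bound of Pecam1, which was measured in control cells alone, so their equal height follows from the level and is not an observation. The proliferation list has medians of -0.77 in NK1.1+ KO cells and 2.22 in NK1.1− KO.

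Cd24a is also high on B cell and red cell precursors, and the markers of these and other cells moved between the arrays. Of 15 B lineage genes on the array, 7 were measured in NK1.1+ KO cells, 7 in NK1.1− KO cells and 9 in control cells, and their intensities summed to 11170 in NK1.1+ KO cells, 1344 in NK1.1− KO cells and 2403 in control cells. Most of this was Ighm, which encodes the μ heavy chain, and without it the sums were 432.5 in NK1.1+ KO cells, 572.1 in NK1.1− KO cells and 499.0 in control cells. Cd22, which encodes an inhibitory receptor of B cells, read 182.3 in NK1.1+ KO cells, 359.2 in NK1.1− KO cells and 82.7 in control cells. Without Ighm and Cd22, both left out after their values were seen, the sums were 250.2 in NK1.1+ KO cells, 212.9 in NK1.1− KO cells and 416.3 in control cells. Only with both left out was the control sum the highest. In NK1.1− KO minus control 3 of 9 measured B lineage genes were lower and 1 higher, where 5.56% of all genes were lower and 7.98% higher. In NK1.1+ KO minus control 2 of 10 were lower and 2 higher, where 22.6% of all genes were lower and 9.73% higher. After quantile normalization 1 of 10 was lower and 2 higher, where 18.3% of all genes were lower and 12.4% higher. With equal medians 0 of 11 were lower and 3 higher, where 14.5% of all genes were lower and 13.9% higher. Cd79a, Pax5, Vpreb1, Vpreb3 and Blnk were not measured on any array. Ms4a1, which encodes CD20, read 108.4 in NK1.1+ KO cells, 76.7 in NK1.1− KO cells and 211.5 in control cells. Of 6 red cell genes, Hba-a1, Alas2, Klf1 and Epor were not measured, and the sums were 68.3 in NK1.1+ KO cells, 46.8 in NK1.1− KO cells and 115.7 in control cells. Slc4a1, the anion exchanger of red cells, read 41.2 in NK1.1+ KO cells, 11.4 in NK1.1− KO cells and 59.6 in control cells. Of 14 myeloid genes, 9 were measured in NK1.1+ KO cells with a sum of 8949, 8 in NK1.1− KO cells with a sum of 364.7 and 7 in control cells with a sum of 285.3. C1qa, Itgam, Cd14, Mpo and Elane were measured on none of the arrays, and Csf1r, which encodes the receptor for macrophage colony-stimulating factor, read 7666 in NK1.1+ KO cells, 54.5 in NK1.1− KO cells and 30.5 in control cells. The sums of 8 dendritic cell genes, 5 measured on each array and Siglech, Flt3 and Xcr1 on none, were 2001 in NK1.1+ KO cells, 800.6 in NK1.1− KO cells and 584.4 in control cells. The sums of 5 plasma cell genes, of which Tnfrsf17 was measured on none, were 4013 in NK1.1+ KO cells, 965.6 in NK1.1− KO cells and 596.6 in control cells. In NK1.1+ KO minus control 2 of 4 measured were higher and 1 lower, where 9.73% of all genes were higher and 22.6% lower. The 2 higher were Jchain, at 2282 in NK1.1+ KO cells against 15.9 in control cells, and Xbp1, at 1675 against 467.6. Irf4 was lower, at 40.1 against 97.6. Of 8 epithelial genes, including those of thymic epithelium, 0 were measured in NK1.1+ KO cells, 2 in NK1.1− KO cells and 2 in control cells, and Foxn1, Psmb11 and Aire were measured on none. All 6 CD8 T cell genes were measured on every array, with sums of 3685 in NK1.1+ KO cells, 7143 in NK1.1− KO cells and 10220 in control cells. In NK1.1+ KO minus control 5 were lower and 0 higher, where 22.6% of all genes were lower. With quantile normalization or equal medians 4 were lower, where 18.3% and 14.5% of all genes were. In NK1.1− KO minus control 0 were called. Cd3e was not lower, and read 775.9 in NK1.1+ KO cells, 750.3 in NK1.1− KO cells and 701.1 in control cells. The part of other cells in the Sox4 and Cd24a differences was not tested.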

How the data were processed

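The authors deposited 1 table of intensity values on a linear scale for 45101 probe sets on 3 arrays. Per the submitters' processing notes these were made with GCRMA 1.1.3; the sources used here give neither its settings nor a genome build. Names came from the platform annotation: of 45037 probe sets other than controls, 34945 had 1 gene symbol, 932 several and 9160 none. Groups were taken from the sample titles.

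log2 values of the deposited intensity were computed with Python 3.11.15, pandas 2.3.3 and numpy 2.4.6. Values under 9.66 (3.27 on the log2 scale), the 95th percentile of 145 probe sets for crystallins of the lens, keratin-associated proteins, and receptors of smell, taste and the vomeronasal organ, were raised to that level. Differences were taken between arrays, called at 2-fold, and set against the share called among all genes tested. A single array per group allows no test or p-value, and precision is limited by the number of arrays. The calling rules were also run on simulated data, where the changed genes were bright, the changes large and the noise smaller than the pooled SD between probe sets. That run does not cover changes in genes near the level or differences near 2-fold. The 8 genes and all gene lists were chosen with earlier results of these data known. Named were all 8 genes, from each other list and comparison at most 2 genes per direction with the largest differences, among those measured on both arrays, the 3 nearest genes by pattern, and Actb, Gapdh, Tgfbr2 and Klrb1c. Genes of the marker lists that no array measured, and Pecam1, Ptk7, Ptcra, Sox11 and Il7r, fall outside that rule and were named after their values were seen. Promoters came from RefSeq. The alternatives were other levels, an offset, other choices of probe set, 2 scalings and other folds. Sums without Ighm and Cd22 and counts without Pecam1 were added after seeing the data.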

Additional observations from a re-analysis of the deposited data

Results flagged for a closer look

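Of the 3 member genes measured on all 3 arrays, Themis alone differed from control in opposite directions in the KO subsets on its brightest probe set. The log2 difference was -0.52 in NK1.1+ KO and 0.21 in NK1.1− KO. The difference between the subsets was not tested, since each group has 1 array and both values use the same control array. Neither value reached 2-fold. Its probe set 1443192_at had the reverse order, at 0.87 in NK1.1+ KO and 0.08 in NK1.1− KO, each minus control.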

How the results depend on the processing

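Over the 36 values of Sox4 and Cd24a minus control under the alternatives, all lay below 0 and 34 were at least 2-fold lower. Values at levels of 5.44, 30.94 and 53.99 repeat the main result, since both genes' brightest probe sets read above these levels on every array. The choice of probe sets without a letter suffix in their name kept the same Sox4 probe set. Sox4 ranged from -2.51 to -0.19 in NK1.1+ KO and from -2.63 to -0.19 in NK1.1− KO, and Cd24a from -1.86 to -1.44 and from -2.03 to -1.11 on the log2 scale. When a gene was given the average over all its probe sets, 1 member gene, Cd24a, was called in each KO subset minus control in place of 2, and Sox4 lay at -0.19 in both, because 6 of its 8 probe sets were not measured and enter that mean; with the mean of its measured probe sets, chosen after seeing the data, it lay at -1.91 in both. At a fold of 1.5, 1 gene, Themis, was called between the KO subsets in place of 0. At the median of the panel as the level (5.44), Dntt was also called, at -1.07 in NK1.1+ KO and -1.09 in NK1.1− KO. Of 99 values of single genes under the alternatives, 90 moved by less than the pooled SD between probe sets, 9 moved by more, and 0 changed the sign of a called difference. The 90 include values of Sox4, Cd24a and Themis that a change of level could not move. Some counts over all genes moved by over 1.5 times and others by less. For NK1.1+ KO minus control, 1034 genes higher and 2398 lower became 582 and 1470 with an offset of 32, 559 and 1475 at a level of 53.99 (the 75th percentile of all values), 555 and 1817 when averaging a gene's probe sets, 678 and 1851 at a level of 30.94 (a panel taken by the first letters of gene symbols, tried first and replaced after seeing that it held genes of other kinds), 1797 and 3671 at a fold of 1.5, and 547 and 1182 at a fold of 3. For NK1.1− KO minus control, 803 higher and 559 lower became 473 and 237, 493 and 310, 533 and 356, 585 and 391, 1610 and 1481, and 375 and 147 under the same settings. Between the KO subsets, 683 higher and 2222 lower became 360 and 1188, 323 and 1287, 329 and 1568, 401 and 1673, 1349 and 3747, and 361 and 896. Leaving out an array was not possible. No paired analysis was possible because each group has 1 array. Values near the level, such as those of Dntt and of the Sox4 probe set 1419156_at, are limited by signal over background; with equal medians that Sox4 probe set fell short of 2-fold in NK1.1+ KO minus control, at -0.95.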
